A study of Mus musculus with 32 samples.

Results

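Sub-polysomal RNA is the mRNA that sediments in a sucrose gradient with fewer than 3 ribosomes. Here its level was compared between 4T1 tumor spheroids in which *Grin2d* was silenced and spheroids with a scramble shRNA. The comparison used 8 of the 32 libraries of the series, the 4 sub-polysomal libraries of ASP shGRIN2D and the 4 of ASP shSCR, and it covered all genes. 4T1 is a mouse mammary carcinoma cell line. The cells carried a lentiviral shRNA against *Grin2d* or a non-targeting one and were polyclonal pools kept after puromycin selection. Culture lasted 5 days, in a lung-like medium supplemented with 700 µM aspartate, for both groups. The study's general culture protocol adds Matrigel and collagen I to this medium. One shRNA pool stood for each genotype, so the silencing of *Grin2d* and any other difference between the pools cannot be told apart. The remaining conditions of the series were spheroids with an shRNA against *Dhps* and aspartate (ASP shDHPS) and scramble spheroids without added aspartate (NoASP shSCR). Each condition had 4 spheroid pellets, and each pellet also gave a polysomal library.

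The libraries held 15614647 to 21730239 counts in ASP shGRIN2D and 17317370 to 25639437 in ASP shSCR. Of 17757 genes in the count table, 12785 had enough counts to be tested. Levels are given as counts per 1e+06 counts (CPM) after TMM scaling among these 8 libraries. Changes are log2 of ASP shGRIN2D over ASP shSCR. A single library of the controls, ASP shSCR replicate 2, stood apart. It lay at 57.0 on the first principal component, where the other 7 libraries lay between -19.4 and 5.67. It also had the highest share of ribosomal protein mRNA, 18.3%, against 11.1% to 15.01% in the others.

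*Grin2d* encodes a subunit of the NMDA receptor, a glutamate-gated ion channel best known from synapses that can also bind aspartate. Calcium that enters through this receptor is known to activate kinases that phosphorylate the transcription factor CREB. The enzymes DHPS and DOHH convert a lysine of the translation factor eIF5A into hypusine, which helps ribosomes through difficult peptide bonds. Spheroid levels of mRNA with few or no ribosomes reflect both how much of an mRNA is made and how much of it moves into polysomes.

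First, the silenced gene was examined. *Grin2d* lies at chr7:45831883-45878378 on the minus strand (GRCm38). In the 4 ASP shGRIN2D libraries it measured 2.38, 1.74, 2.45 and 2.66 CPM, from 56, 30, 39 and 44 counts. In the 4 ASP shSCR libraries it measured 3.94, 3.51, 6.49 and 3.105 CPM, from 101, 60, 126 and 56 counts. Every silenced library lay below every control, and ASP shSCR replicate 3 was the highest of all. The log2 change was -0.89 (SE 0.31), which did not pass the threshold of 0.05 in edgeR's quasi-likelihood test after Benjamini-Hochberg adjustment (unadjusted p = 0.0111, adjusted p = 0.321). An exact two-sided permutation test over the 8 libraries gave p = 0.0286, the smallest value that 4 against 4 allows. Without ASP shSCR replicate 3 the log2 change was -0.61. With 30 to 126 counts per library, the size of the reduction is known only roughly.

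The mRNAs of components that the study places downstream of the receptor did not pass the test in this fraction. The study followed CREB and SMAD3 by phosphorylation and eIF5A by hypusination, which mRNA levels do not measure. It followed *Dohh* by quantitative PCR of spheroid RNA and by protein staining in metastases, so the values here are not a like measure. *Dohh*, which completes hypusine, measured 98.8, 88.8, 64.2 and 68.3 CPM in ASP shGRIN2D and 94.6, 80.1, 97.7 and 84.4 CPM in ASP shSCR. These ranges overlapped, with a log2 change of -0.16 (SE 0.17, adjusted p = 0.791). *Dhps*, which acts before it, had a log2 change of -0.07 (SE 0.17) and *Eif5a*, the protein they modify, one of -0.03 (SE 0.21). The paralog *Eif5a2* averaged 17.3 ± 2.34 CPM (SD, n = 4) against 12.1 ± 3.11 CPM (log2 change 0.51, unadjusted p = 0.0205, adjusted p = 0.400). The transcription factor *Creb1* and the TGF-β pathway genes *Tgfb1* (ligand) and *Smad3* (signal transducer) had log2 changes of 0.15, -0.08 and 0.15, with overlapping groups. *Grin2b*, another receptor subunit, and *Col3a1* were not in the count table used here, and *Col1a1* had too few counts to be tested.

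**Figure D1:**
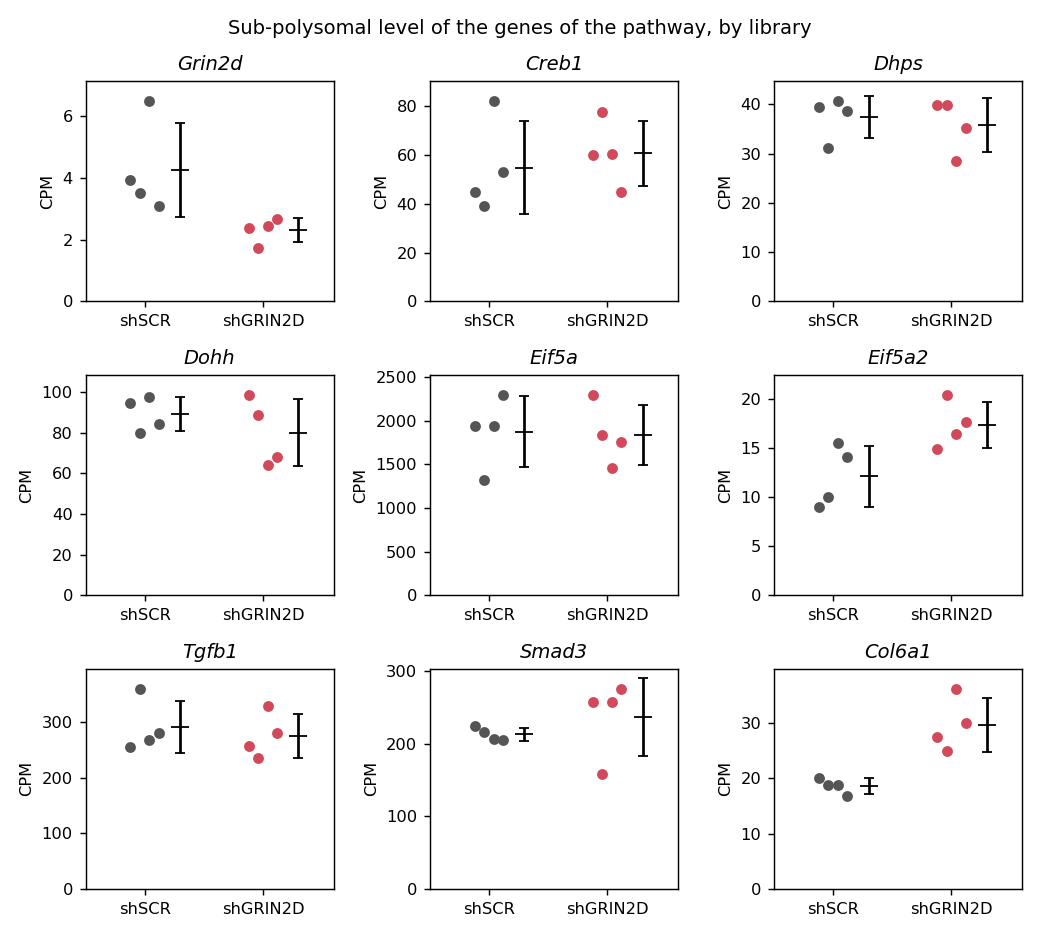
Sub-polysomal level (CPM, linear axes from 0) of 9 genes of the receptor, hypusination and TGF-β pathways. Points are libraries (n = 4 per group) and bars beside them the mean ± SD. *Grin2d* and *Col6a1* are the panels in which the groups do not overlap, *Grin2d* being lower and *Col6a1* higher in shGRIN2D.

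*Col6a1*, a chain of collagen VI, is the other gene of this group whose libraries separated, as those of 6.62% of all genes did. It measured 27.5, 24.9, 36.3 and 29.99 CPM in ASP shGRIN2D and 20.1, 18.9, 18.8 and 16.8 CPM in ASP shSCR. All silenced libraries were higher, but the change did not pass the adjusted threshold (log2 change 0.67, unadjusted p = 0.000846, adjusted p = 0.140). Its exact permutation p of 0.0286 was again the smallest possible. Any gene without overlap reaches this value, so it adds nothing to the separation. The other 7 tested genes named for the mechanism gave exact permutation p values of 0.0571 to 0.971.

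Next, all genes were considered. In ASP shGRIN2D, 32 of 12785 genes changed (0.250%) at an adjusted p under 0.05. Of these, 15 rose (0.117%) and 17 fell (0.133%). At an unadjusted p under 0.05 there were 1289 genes (10.1%), 584 higher (4.57%) and 705 lower (5.51%). The groups did not overlap at 846 genes (6.62%), among them all 32 that changed, and it was 2.85% with ASP shGRIN2D higher and 3.77% with it lower. The changes that passed the test spanned 0.86 to 4.08 on the log2 scale upward and -0.87 to -1.28 downward, and the median over all genes was 0.00075. The count was lower whichever library was left out, from slightly to several-fold. It was 8, 14, 13 and 6 without ASP shGRIN2D replicates 1 to 4 in turn, and 22, 21, 28 and 6 without ASP shSCR replicates 1 to 4. Only *Ly6d*, *Asic1*, *Odf3l1* and *Cyb561a3* were called under all 15 alternative settings and omissions, while all 32 kept their direction wherever they were measured.

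**Figure D2:**
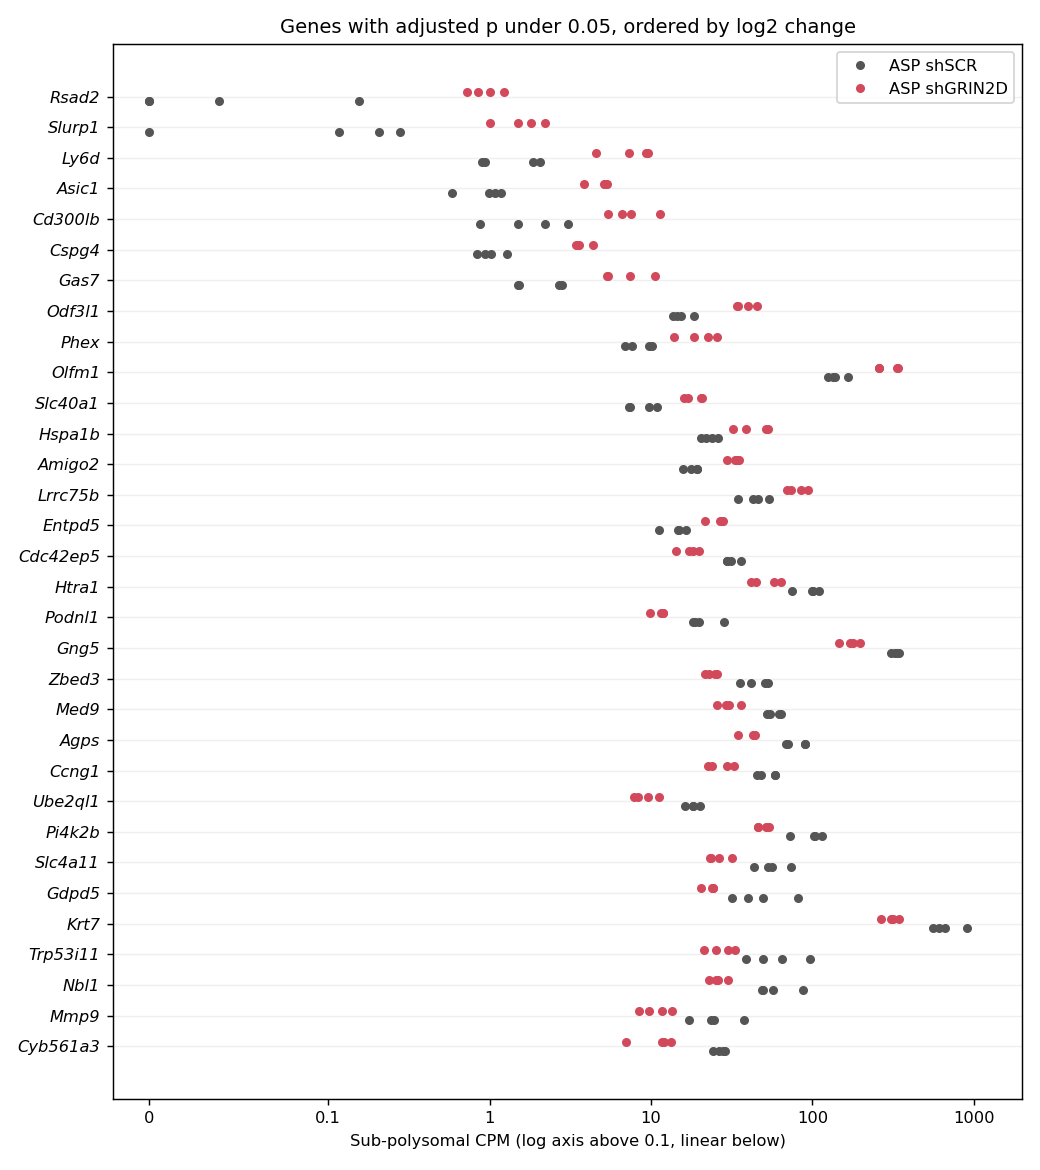
Sub-polysomal level in each of the 8 libraries of the 32 genes with an adjusted p under 0.05, ordered by log2 change from *Rsad2* (4.08) at the top to *Cyb561a3* (-1.28) at the bottom. The axis is CPM, logarithmic above 0.1 and linear below. For each gene the ASP shGRIN2D points lie entirely to one side of the ASP shSCR points.

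Among the genes that rose with a mean of at least 50 counts, the largest change was in *Ly6d*, a GPI-anchored surface protein of the Ly6 family found on epithelial and lymphoid cells. It measured 9.63, 9.29, 7.34 and 4.595 CPM in ASP shGRIN2D and 0.897, 2.05, 1.86 and 0.943 CPM in ASP shSCR. All silenced libraries lay well above the controls, of which replicates 2 and 3 were the higher ones (log2 change 2.44, SE 0.34, adjusted p = 0.00500). *Slurp1*, a secreted protein of the same family, had 52, 26, 16 and 30 counts in the silenced libraries and 3, 0, 4 and 5 in the controls (log2 change 3.40, SE 0.60, adjusted p = 0.0172). It was close to absent from the controls, so its fitted change depends on the prior count and is only approximate. *Slurp1* is at chr15:74724318-74728034 and *Ly6d* at chr15:74762056-74763620 (GRCm38, minus strand), 34021 bases apart. Of the 25 protein-coding genes within 500000 bases of them, 9 were tested. Besides these genes, *Lynx1* between them (log2 change 0.85, unadjusted p = 0.00845, adjusted p = 0.298) and *Ly6e* (log2 change 0.76, unadjusted p = 0.00143, adjusted p = 0.175) had positive values that did not pass the adjusted threshold. *Arc* (log2 change -1.05, unadjusted p = 0.109, adjusted p = 0.608) and *Jrk* (log2 change -0.36, unadjusted p = 0.109, adjusted p = 0.608) had negative values, and *Ly6a*, *Ly6c1* and *Them6* had log2 changes of 0.32, 0.42 and 0.09. The log2 changes of *Arc*, *Ly6a* and *Ly6c1* were -0.63, 0.21 and 0.12 without ASP shSCR replicate 2. This window was picked after the values of *Ly6d* and *Slurp1* were seen. *Slurp1* overlaps *Them6* on the other strand.

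*Asic1*, a subunit of proton-gated sodium channels, measured 5.14, 3.83, 5.21 and 5.32 CPM in ASP shGRIN2D and 1.17, 0.585, 1.08 and 0.998 CPM in ASP shSCR. The groups were far apart, with replicate 2 the lowest library of each (log2 change 2.33, SE 0.33, adjusted p = 0.00500). *Slc40a1*, which encodes the iron exporter ferroportin, measured 16, 16.9, 20.5 and 20.7 CPM against 10.9, 7.37, 9.74 and 7.26 CPM (log2 change 1.07, SE 0.19, adjusted p = 0.0178). Its silenced libraries all lay above the highest control, ASP shSCR replicate 1.

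*Olfm1*, a secreted glycoprotein that modulates Wnt and Nogo receptor signalling, was the most abundant gene that rose. It measured 335, 257, 340.5 and 259.8 CPM in ASP shGRIN2D and 167, 134, 138 and 124 CPM in ASP shSCR, a clear separation (log2 change 1.08, SE 0.17, adjusted p = 0.0113). *Cspg4* (NG2), a membrane proteoglycan of pericytes, glial precursors and some tumors, averaged 3.72 ± 0.427 against 1.02 ± 0.195 CPM (SD, n = 4; log2 change 1.86). *Amigo2*, an adhesion molecule, averaged 33 ± 2.43 against 17.99 ± 1.62 CPM (log2 change 0.87). *Cd300lb*, an immunoglobulin-domain receptor usually studied in myeloid cells, averaged 7.72 ± 2.59 against 1.91 ± 0.934 CPM (log2 change 2.00). These 4 genes differ widely in level, yet each had all silenced libraries above all controls. *Phex*, an endopeptidase of phosphate balance, also rose (log2 change 1.23), as did the ER nucleotidase *Entpd5* (log2 change 0.86).

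*Odf3l1*, a gene related to sperm tail proteins, had the smallest adjusted p of all genes. It measured 45.2, 34.1, 34.6 and 40.03 CPM in ASP shGRIN2D and 14.5, 15.4, 13.7 and 18.5 CPM in ASP shSCR. The lowest silenced library was at a level well above the highest control (log2 change 1.31, SE 0.17, adjusted p = 0.00497). The gene lies at chr9:56848659-56864679 (GRCm38, minus strand), and 353 bases separate its start from that of *Cspg4* at chr9:56865033-56899870 (plus strand), a pairing noticed after both values were seen. *Gas7*, a protein that shapes the actin cytoskeleton, rose from 2.13 ± 0.715 to 7.16 ± 2.44 CPM (SD, n = 4; log2 change 1.76), and *Lrrc75b* from 44.2 ± 7.72 to 80.5 ± 10.7 CPM (log2 change 0.86). The heat shock chaperone *Hspa1b* measured 32.2, 38.9, 51.6 and 53.1 CPM against 21.8, 23.8, 26.03 and 20.5 CPM (log2 change 0.93, SE 0.18, adjusted p = 0.0332). It shares nearly all of its sequence with *Hspa1a*, which was not among the genes tested, so the assignment of its reads is uncertain. Of 21 heat shock chaperone genes, 1 was called, 3 were higher (14.3%, against 4.57% of all genes) and 0 lower at an unadjusted p under 0.05, and the median log2 change was 0.03. *Rsad2* (viperin), an interferon-induced antiviral protein, had 20, 21, 16 and 12 counts in the silenced libraries and 1, 0, 3 and 0 in the controls (log2 change 4.08, SE 0.74, adjusted p = 0.0172). Its fitted change is likewise approximate. Among 35 tested genes of interferon response and RNA sensing, *Rsad2* was the only one higher at an unadjusted p under 0.05 (2.86%), 2 were lower (5.71%), and the median log2 change was 0.13.

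Among the genes that fell, the most abundant was the keratin *Krt7*, an intermediate filament protein of simple epithelia at chr15:101411043-101430313 (GRCm38, plus strand). It measured 267, 317, 346 and 307 CPM in ASP shGRIN2D and 664, 901, 611 and 558 CPM in ASP shSCR. The silenced libraries were close to each other and well below the controls, of which replicate 2 was the highest (log2 change -1.14, SE 0.19, adjusted p = 0.0140). *Cdc42ep5*, an effector of the small GTPase CDC42 that organizes septins and actin, fell from 31.8 ± 3.16 to 17.4 ± 2.28 CPM (SD, n = 4; log2 change -0.87).

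*Mmp9*, a gelatinase that degrades basement membrane collagen, measured 8.45, 9.76, 11.7 and 13.4 CPM in ASP shGRIN2D and 24.7, 37.5, 17.1 and 23.5 CPM in ASP shSCR. The gap was narrow, since ASP shSCR replicate 3 was not far above the highest silenced library (log2 change -1.25, SE 0.23, adjusted p = 0.0178). *Htra1*, a secreted serine protease, averaged 51.9 ± 10.5 against 95.96 ± 14.9 CPM (log2 change -0.89). It overlaps *Fgfr2* on the other strand, which had a log2 change of 0.87. *Nbl1* (DAN), an antagonist of BMP ligands, measured 22.96, 25.9, 29.9 and 25.4 CPM against 48.5, 87.7, 57.1 and 49.6 CPM (log2 change -1.22, SE 0.19, adjusted p = 0.0123). Again ASP shSCR replicate 2 was the highest control and no silenced library reached the lowest one. The small leucine-rich proteoglycan *Podnl1* fell as well (log2 change -0.91).

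*Gng5*, a gamma subunit of heterotrimeric G proteins, measured 177, 197, 171 and 145 CPM in ASP shGRIN2D and 306, 331, 343 and 325 CPM in ASP shSCR (log2 change -0.92, SE 0.16, adjusted p = 0.0158). *Pi4k2b*, a phosphatidylinositol 4-kinase, averaged 49.3 ± 4.18 against 98.2 ± 17.8 CPM (log2 change -0.99). *Agps*, an enzyme of ether lipid synthesis in peroxisomes, averaged 41.2 ± 4.56 against 79.7 ± 11.8 CPM (log2 change -0.95). In each of these 3 genes all silenced libraries lay below all controls. *Cyb561a3*, an ascorbate-dependent ferrireductase of lysosomes, had the largest decrease among the genes that passed the adjusted threshold. It measured 13.4, 12.03, 7.03 and 11.7 CPM against 26.5, 28.6, 24.3 and 27.8 CPM, with replicate 3 the lowest library of both groups (log2 change -1.28, SE 0.20, adjusted p = 0.0113). It overlaps *Tkfc* on the other strand, whose log2 change was -0.58, or -0.25 without ASP shSCR replicate 2.

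*Ccng1* (cyclin G1), a target of p53, averaged 27.1 ± 4.81 against 52.6 ± 7.09 CPM (log2 change -0.96), and *Trp53i11*, also induced by p53, 27.4 ± 5.296 against 62.5 ± 25.5 CPM (log2 change -1.19). The list of p53 and apoptosis genes used here holds *Ccng1* but not *Trp53i11*. Of its 29 tested members 1 was called, 3 were higher (10.3%, against 4.57% of all genes) and 2 lower (6.9%, against 5.51%) at an unadjusted p under 0.05, and the median log2 change was -0.0049. *Slc4a11*, a membrane transporter, *Gdpd5*, a glycerophosphodiester phosphodiesterase, *Ube2ql1*, a ubiquitin-conjugating enzyme, *Med9*, a Mediator subunit, and *Zbed3*, an axin-binding zinc finger protein, fell by 1.11, 1.13, 0.98, 0.94 and 0.94 on the log2 scale.

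*Krt7* is 1 of 10 genes used here as markers of the 4T1 carcinoma cell. most abundant, *Krt8*, averaged 935 CPM over the 8 libraries, and all 10 were measured, as the labelled cell type has them. Of the 10, 1 was called, 7 were lower at an unadjusted p under 0.05 (5.51% of all genes were) and 0 were higher. The median log2 change was -0.54, against 0.00075 over all genes. The partners *Krt8* and *Krt18*, which form the filaments of simple epithelia, were picked with *Krt19* because they belong to this list, after their values were seen. *Krt8* measured 505, 665, 839 and 681 CPM in ASP shGRIN2D and 1061, 1689, 1032 and 1009.7 CPM in ASP shSCR (log2 change -0.83, unadjusted p = 0.00110, adjusted p = 0.154). *Krt18* measured 514, 497, 695 and 561 CPM against 992, 1958, 751 and 871 CPM (log2 change -1.01, unadjusted p = 0.000938, adjusted p = 0.148). *Krt19* measured 51.1, 54.8, 60.04 and 62.5 CPM against 73.7, 130.1, 70.97 and 80.4 CPM (log2 change -0.64, unadjusted p = 0.00346, adjusted p = 0.229). In each of these keratins all silenced libraries lay below all controls, and ASP shSCR replicate 2 was highest. Without that library the log2 changes of *Krt8*, *Krt18* and *Krt19* were -0.60, -0.60 and -0.38. The groups did not overlap in 5 of the 10 markers, all lower, against 3.77% of all genes. The E-cadherin gene *Cdh1* is the marker with a positive change, 0.13, and its groups overlapped.

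The summed level of the 10 markers was 2244 to 2645 CPM in the silenced libraries and 3420 to 5542 CPM in the controls. Without ASP shSCR replicate 2 the median log2 change of the markers was -0.51 and 7 of them were again lower at an unadjusted p under 0.05. The spheroids were grown from the 4T1 line, so these markers do not count cell types. Fewer cells with these mRNAs and less of them per cell cannot be told apart in whole spheroids. Movement of the markers between the fractions was not tested for the list, and their polysomal median is given below. Few markers of other cells were in the table. Of 10 fibroblast markers 2 were in the table, with *Thy1* the most abundant (115 CPM). Of 10 leukocyte markers 5 were, with *Cd68* at 7.69 CPM, of 8 endothelial markers 1 was, *Pecam1* at 0.303 CPM, and of 10 neuronal markers 4 were, with *Map2* at 9.09 CPM. Their summed levels overlapped between the groups. Fibroblast markers summed to 93.5 to 157 CPM in ASP shGRIN2D and 103 to 152 CPM in ASP shSCR, and leukocyte markers to 17.2 to 22.9 and 15.5 to 25.4 CPM. The study marked 4T1 cells with a Thy1.1 reporter for its mouse experiments. Whether these spheroids carried it is not stated, so *Thy1* cannot be read as fibroblast signal here.

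**Figure D3:**
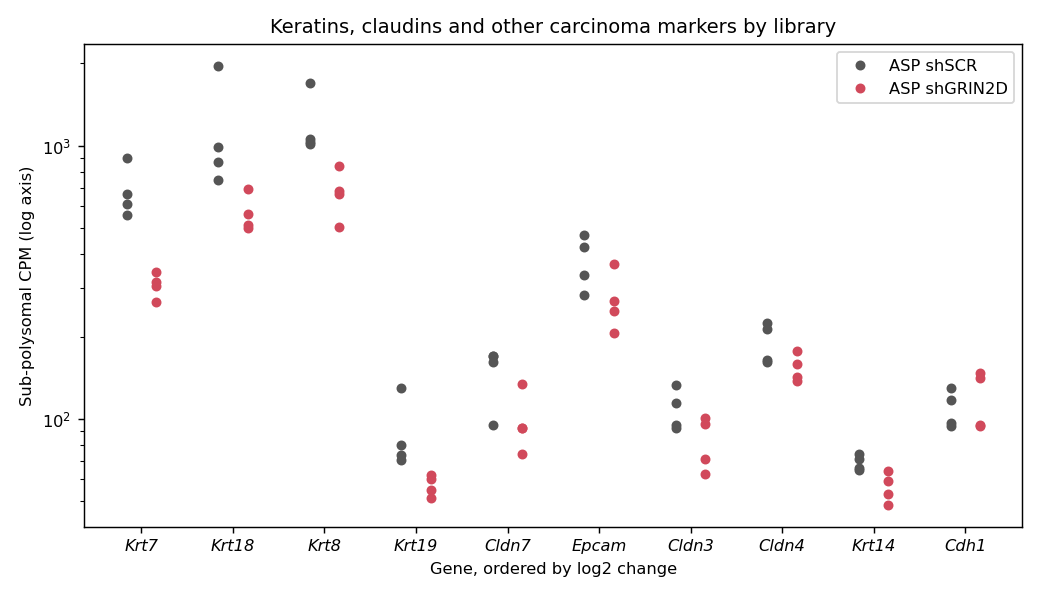
Sub-polysomal level (CPM, log axis) of the 10 carcinoma markers in each library, ordered by log2 change. The 4 keratins on the left have all ASP shGRIN2D points below all ASP shSCR points, whereas *Cdh1* on the right overlaps.

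A wider list of 21 tested genes of the epithelial state, which holds these keratins, had 1 called and 9 lower at an unadjusted p under 0.05 (42.9%, against 5.51% of all genes), 0 higher and a median log2 change of -0.31. Among 10 mesenchymal genes 0 passed at an unadjusted p under 0.05, and their median was 0.21. *Spp1*, the most abundant of them, had a log2 change of -0.09 and *Zeb2*, the one with the smallest p, one of 0.45 that ranged from 0.28 to 0.70 over the omissions of single libraries.

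Genes of the pathways that the study connects to the receptor were then described as lists. Over all genes tested, 0.250% were called, and 4.57% were higher and 5.51% lower at an unadjusted p under 0.05. Of 27 CREB target genes, 0 were called, 4 were higher (14.8%) and 2 lower (7.41%) at an unadjusted p, and the median log2 change was -0.00056. The smallest p belonged to *Rgs2*, an inhibitor of G protein signalling. It measured 14.5, 10.9, 8.85 and 9.25 CPM in ASP shGRIN2D and 5.27, 3.802, 6.03 and 5.38 CPM in ASP shSCR, without overlap (log2 change 1.09, unadjusted p = 0.000170, adjusted p = 0.0602). *Ccnd1* (cyclin D1), the most abundant target, had a log2 change of -0.12. Of 34 ligands, receptors and SMADs of the TGF-β family 0 were called, 5 were higher (14.7%) and 4 lower (11.8%) at an unadjusted p, and the median was 0.11. The smallest p was that of *Ltbp2*, a latent TGF-β binding protein, at 10.5 ± 2.11 against 18.1 ± 7.103 CPM (log2 change -0.78, unadjusted p = 0.00407, adjusted p = 0.236). Its log2 change was -0.45 without ASP shSCR replicate 2. Of 27 TGF-β target genes *Mmp9* was called, 4 were lower (14.8%) and 3 higher (11.1%) at an unadjusted p, and the median was 0.02.

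Collagen genes had values of both signs. Of 16 tested collagen chains 0 were called, 3 were higher (18.8%, against 4.57% of all genes) and 1 lower (6.25%, against 5.51%) at an unadjusted p, and the median log2 change was 0.05. *Col6a1* had the smallest p, and *Col4a1*, a basement membrane chain and the most abundant, had a log2 change of -0.09. The median was -0.15 without ASP shGRIN2D replicate 3 and 0.20 without ASP shGRIN2D replicate 1. Of 24 genes of collagen folding and crosslinking 0 were called, 3 were lower (12.5%) and 0 higher at an unadjusted p, and the median was -0.18. *Pcolce*, an enhancer of procollagen cleavage, measured 36.1, 32.5, 41.97 and 40.5 CPM in ASP shGRIN2D and 80.1, 77.7, 51.3 and 57.7 CPM in ASP shSCR, without overlap (log2 change -0.82, unadjusted p = 0.000185, adjusted p = 0.0616). Of 27 matrix proteases and inhibitors *Mmp9* was called, 6 were lower (22.2%) and 1 higher (3.7%) at an unadjusted p, and the median was -0.06.

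**Figure D4:**
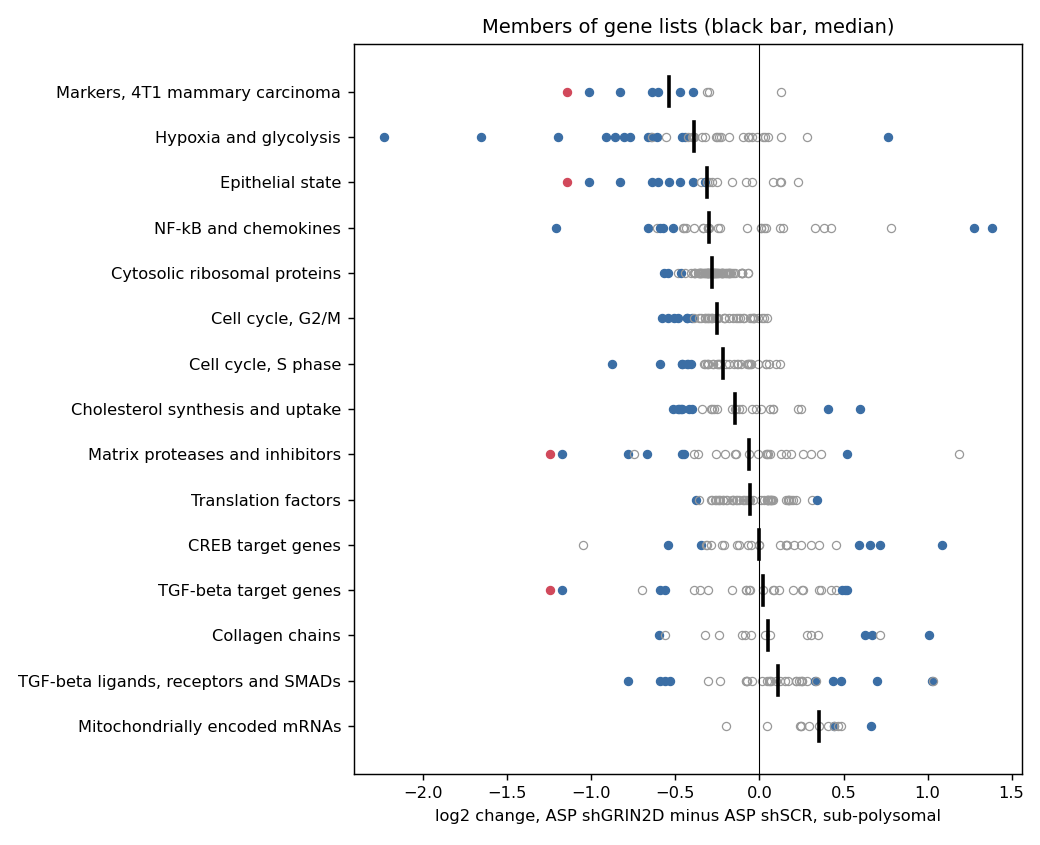
Log2 change (ASP shGRIN2D minus ASP shSCR, sub-polysomal RNA) of the tested members of 15 gene lists, ordered by median (black bars). Red points have an adjusted p under 0.05, blue points an unadjusted p under 0.05 and open points neither. Carcinoma markers have the lowest median (-0.54) and mitochondrially encoded mRNAs the highest (0.36).

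Genes of hypoxia and glycolysis had the second lowest median of the lists plotted, and it rested on a single control. Of 37 tested, 0 were called, 12 were lower (32.4%, against 5.51% of all genes) and 1 higher (2.7%, against 4.57%) at an unadjusted p, with a median log2 change of -0.39. *Ankrd37*, a target of the hypoxia-inducible factor, measured 2.93, 2.32, 2.38 and 3.27 CPM in ASP shGRIN2D and 4.95, 34.98, 4.79 and 6.99 CPM in ASP shSCR (log2 change -2.23, unadjusted p = 0.000356, adjusted p = 0.0874). ASP shSCR replicate 2 had by far the highest value. Without this library the median of the list was -0.03 and 3 members were lower at an unadjusted p. The most abundant member, the glycolytic enzyme gene *Gapdh*, had a log2 change of -0.42 (unadjusted p = 0.0907). Without ASP shSCR replicate 2 the log2 change was -0.10 for *Gapdh* and -1.01 for *Ankrd37*.

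Cell cycle genes had small negative values. Of 36 S phase genes 31 had a negative value, 7 were lower (19.4%, against 5.51% of all genes) and 0 higher at an unadjusted p, and 0 were called (median -0.21). The member with the smallest p was *Ccne1* (cyclin E1), which drives entry into S phase. It measured 17.7, 17.4, 15.7 and 15 CPM in ASP shGRIN2D and 37.3, 21, 32.4 and 30.2 CPM in ASP shSCR, where replicate 2 was lowest but still above the silenced libraries (log2 change -0.88, unadjusted p = 0.000157, adjusted p = 0.0590). Of 41 G2/M genes 38 had a negative value, 7 were lower (17.1%) and 0 higher, and 0 were called (median -0.25). *Cdc20*, an activator of the anaphase-promoting complex, had a log2 change of -0.55, and its groups overlapped. Without ASP shSCR replicate 2 the medians were -0.22 and -0.23. When libraries were scaled by their totals, they were -0.18 and -0.22, with a median over all genes of 0.04. Larger HALLMARK sets lay closer to all genes. The G2/M checkpoint set (197 tested) had 6.6% lower and 1.02% higher at an unadjusted p (median -0.05). The mitotic spindle set (196 tested) had 4.08% lower and 2.04% higher (median -0.02). Whether cell cycle genes vary together from library to library was not tested, so counts of negative values are descriptions.

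All 79 mRNAs of cytosolic ribosomal proteins had a negative value (median -0.28), with 0 called and 3 lower at an unadjusted p (3.8%, against 5.51% of all genes). *Rpsa*, the most abundant, measured 4805, 7785, 7208 and 4985 CPM in ASP shGRIN2D and 7292, 11835, 6560.3 and 5926 CPM in ASP shSCR. These ranges overlapped, and the log2 change of *Rpsa* was -0.35, or -0.07 without ASP shSCR replicate 2. Without that library, the one with the highest ribosomal protein share, the median of the list was -0.11 and 0 members passed at an unadjusted p. These mRNAs vary together from library to library, so their number does not count as that many observations. Mitochondrially encoded mRNAs lay on the other side, with a median log2 change of 0.36 over 13 genes, 0 called and 2 higher at an unadjusted p (15.4%, against 4.57% of all genes). Their share of a library was 5.04% to 9.64% in ASP shGRIN2D and 4.81% to 6.86% in ASP shSCR. Without ASP shGRIN2D replicate 3 the median was 0.16 and 0 were higher at an unadjusted p, and without ASP shGRIN2D replicate 1 it was 0.50 and 7 were.

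Of 27 genes of cholesterol synthesis and uptake 0 were called, 7 were lower (25.9%, against 5.51% of all genes) and 2 higher (7.41%, against 4.57%) at an unadjusted p, and the median log2 change was -0.15. *Fdft1* (squalene synthase) had the smallest p, with 51.9, 53.8, 57.2 and 54.4 CPM in ASP shGRIN2D and 75.8, 80.02, 59.1 and 88.9 CPM in ASP shSCR (log2 change -0.48, unadjusted p = 0.00668, adjusted p = 0.274). The groups did not overlap, although ASP shSCR replicate 3 was close to the silenced libraries. Of 31 NF-κB and chemokine genes 0 were called, 5 were lower (16.1%) and 2 higher (6.45%) at an unadjusted p (median -0.30). The larger HALLMARK set of TNF signaling via NF-κB did not have this direction. Of its 172 tested genes 18 were higher (10.5%) and 16 lower (9.3%) at an unadjusted p, with a median of 0.04. Of 49 translation factors 0 were called and 1 was lower and 1 higher (2.04% each) at an unadjusted p (median -0.06).

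The levels of these genes were also read in the same fraction of ASP shDHPS and of NoASP shSCR spheroids, with TMM scaling over all 16 libraries of the fraction. These comparisons share libraries with the one above, so the values are set side by side. *Ly6d* averaged 7.902 ± 2.36 CPM in ASP shGRIN2D, 1.47 ± 0.618 in ASP shSCR, 0.670 ± 0.291 in NoASP shSCR and 0.216 ± 0.137 in ASP shDHPS (SD, n = 4). It was high in ASP shGRIN2D and lowest in ASP shDHPS, with the shDHPS libraries (0.111 to 0.416 CPM) all below those of ASP shSCR. *Asic1* averaged 4.997 ± 0.746, 0.978 ± 0.258, 1.198 ± 0.496 and 1.21 ± 0.188 CPM in the same order. Its last 3 conditions overlapped with each other, and so did those of *Odf3l1*, at 15.9 ± 2.24, 15.9 ± 1.66 and 13.1 ± 0.994 CPM against 39.4 ± 5.56 CPM. *Amigo2* differed, with 30.6 ± 2.56 CPM in ASP shDHPS against 33.8 ± 2.49 in ASP shGRIN2D and 18.4 ± 1.705 in ASP shSCR. Of the 15 genes that rose, 3 were higher in ASP shDHPS than in ASP shSCR without overlap (5.74% of all genes were). Of the others, 1 was lower (6.03% of all genes were) and 11 overlapped. In NoASP shSCR all 15 overlapped with ASP shSCR (1.9% of all genes were higher and 1.87% lower without overlap).

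The genes that fell differed in their level in the other conditions. Of the 17, 5 were lower in ASP shDHPS than in ASP shSCR without overlap (6.03% of all genes were) and 12 overlapped. In NoASP shSCR, 0 of them were lower than in ASP shSCR without overlap (1.87% of all genes were). There, 1 was higher (1.9% of all genes were) and 16 overlapped. Those below are examples. *Krt7* averaged 317 ± 32.7 CPM in ASP shGRIN2D, 342 ± 39.2 in ASP shDHPS, 587 ± 95.5 in NoASP shSCR and 699 ± 161 in ASP shSCR, so both silenced conditions lay below both scramble conditions. *Mmp9* averaged 11.1 ± 2.25, 9.797 ± 2.11, 23.8 ± 6.34 and 26.3 ± 9.04 CPM in that order. *Slc4a11* averaged 26.8 ± 4.097, 24.5 ± 3.47, 45.99 ± 12.3 and 57.8 ± 13.4 CPM. Its ASP shGRIN2D libraries (up to 32.6 CPM) overlapped those of NoASP shSCR (from 30.2 CPM). In contrast, *Agps* in ASP shGRIN2D lay below the other 3 conditions without overlap, at 42.1 ± 4.51 CPM against 94.6 ± 6.59, 99.5 ± 4.34 and 81.4 ± 11.5 CPM. *Ccng1* gave 27.8 ± 4.75 CPM against 62.3 ± 10.99, 58.9 ± 1.95 and 53.7 ± 6.999 CPM, and *Pi4k2b* 50.5 ± 4.09 CPM against 98.8 ± 14.1, 99.02 ± 7.702 and 100.4 ± 18.4 CPM. *Dhps*, the target of the other shRNA, was 9.504 ± 0.813 CPM in ASP shDHPS and 36.7 ± 5.45 CPM in ASP shGRIN2D.

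Next, the change was set beside that in the polysomal libraries of the same pellets. In the polysomal fraction 0 of 12676 genes passed edgeR's test, and 678 (5.35%) had an unadjusted p under 0.05 (1.44% higher and 3.91% lower), whereas DESeq2's Wald test called 30. One polysomal control, ASP shSCR replicate 1, stood apart, with 4.72% mitochondrially encoded mRNA against 0.336% to 1.19% in the other 7. Of the 32 genes that changed in sub-polysomal RNA, 30 had the same sign in polysomal RNA, as did 59.7% of all genes tested in both fractions, and 19 also had an unadjusted p under 0.05 there, all in the same direction. Without that library 32 had the same sign (60.9% of all genes did) and 25 an unadjusted p under 0.05 (3.70% of all genes did), and 0 genes were called. Both fractions come from the same pellets, so they are not independent cultures.

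*Ly6d* measured 7.600, 14.5, 8.004 and 5.58 CPM in the polysomal libraries of ASP shGRIN2D and 0.442, 2.02, 0.558 and 0.703 CPM in those of ASP shSCR (log2 change 3.23, unadjusted p = 5.86e-05). The separation was as clear as in sub-polysomal RNA. *Olfm1* measured 75.4, 57.4, 68.3 and 64.4 CPM in ASP shGRIN2D and 318, 25.8, 30.5 and 35.6 CPM in ASP shSCR. The first control was far above all other libraries, and without it the log2 change was 1.11 in place of -0.63. *Nbl1* measured 4.03, 10.3, 7.103 and 9.799 CPM against 186, 19.6, 11.3 and 10.1 CPM, and without the same library its log2 change was -0.83 in place of -2.86. *Grin2d* itself measured 2.04, 1.19, 1.11 and 2.503 CPM against 3.85, 2.83, 4.24 and 3.56 CPM, again without overlap (log2 change -1.09). *Krt7* had a polysomal log2 change of -0.50 (unadjusted p = 0.113), and the median of the 10 carcinoma markers was -0.12, or -0.17 without ASP shSCR replicate 1.

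Whether the change differed between the fractions was tested in a model with a term for each pellet. Of 13416 genes 0 passed the adjusted threshold in edgeR or in DESeq2, and 246 (1.83%) had an unadjusted p under 0.05 in edgeR and 328 in DESeq2. Of the 32 genes, *Asic1* and *Slc40a1* were among the 246. The 32 were picked by their sub-polysomal change, which enters this difference. Smaller polysomal changes are therefore expected from the selection. Of the 15 genes that rose, 11 had a difference under 0. The estimated log2 difference was -0.96 for *Asic1* (SE 0.43, unadjusted p = 0.0432, adjusted p = 0.9998). For *Slc40a1* it was -0.88 (SE 0.33, unadjusted p = 0.0194, adjusted p = 0.9998), and neither passed the adjusted threshold. Without the polysomal library ASP shSCR replicate 1 the difference of *Asic1* was -0.75 and no longer under 0.05 (unadjusted p = 0.129), and that of *Slc40a1* was -1.02 (unadjusted p = 0.0105). *Slc40a1* measured 3.26, 4.099, 4.98 and 4.22 CPM in the polysomal libraries of ASP shGRIN2D and 3.54, 3.86, 2.51 and 4.72 CPM in those of ASP shSCR. These overlapped, unlike the sub-polysomal values.

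**Figure D5:**
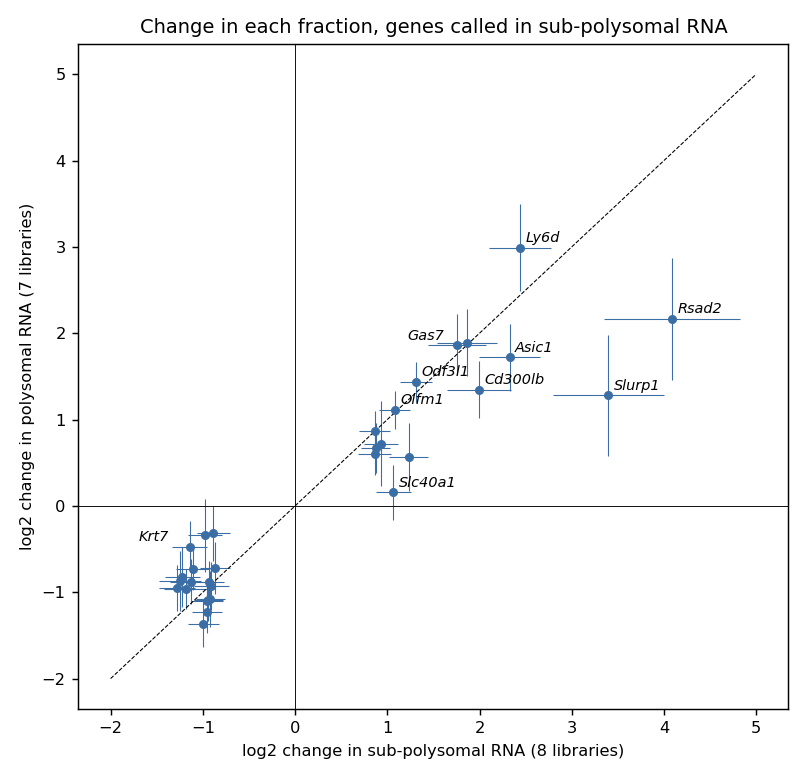
Log2 change of the 32 genes in sub-polysomal RNA (horizontal, 8 libraries) and in polysomal RNA of the same pellets (vertical, 7 libraries, without ASP shSCR replicate 1). Bars are standard errors and the dashed line marks equal change. All points lie in the lower left or upper right, and *Slc40a1* (0.16 in polysomal RNA) is close to the horizontal axis.

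Finally, sequence features of the genes that changed were examined. CREB binds the palindrome TGACGTCA and, less firmly, its shorter core TGACG. Both were searched on both strands of RefSeq promoters (GRCm38.p6, 250 bases before to 50 after the start). Every full site also holds the core site. A promoter was matched for 10 of the 15 genes that rose, 13 of the 17 that fell and 9544 of the genes tested. The full site was found in 0 of 10, 0 of 13 and 3.7% of all. The core site was found in 5 of 10 (50%), 5 of 13 (38.5%) and 36.3% of all. Of the 8 genes called under 12 or more of the 15 alternatives, *Asic1*, *Nbl1* and *Cd300lb* have a core site in this window, *Odf3l1*, *Cyb561a3*, *Olfm1* and *Krt7* have none, and *Ly6d* had no matched promoter. The 250 bases before the starts of *Asic1*, which rose, and *Nbl1*, which fell, are shown as examples of the match, 5′ to 3′ on the gene's strand, at chr15:99691974-99692223 (plus) and chr4:139092971-139093220 (minus), with the core site in capitals in either orientation. The RefSeq start of *Asic1* used here lies inside the GENCODE gene.
Asic1: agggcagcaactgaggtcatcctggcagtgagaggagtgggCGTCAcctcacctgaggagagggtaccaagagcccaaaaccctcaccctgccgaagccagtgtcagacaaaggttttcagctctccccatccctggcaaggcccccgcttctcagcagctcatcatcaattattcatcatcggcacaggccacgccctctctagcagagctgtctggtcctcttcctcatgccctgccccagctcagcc
Nbl1: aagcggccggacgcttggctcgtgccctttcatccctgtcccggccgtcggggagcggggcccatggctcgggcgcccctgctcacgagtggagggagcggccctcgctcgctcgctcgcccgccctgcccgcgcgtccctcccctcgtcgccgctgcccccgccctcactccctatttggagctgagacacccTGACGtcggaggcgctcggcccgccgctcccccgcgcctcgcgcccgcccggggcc

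The core site lies -209 to -205 bases from the start of *Asic1* and -56 to -52 bases from that of *Nbl1*. The presence of these letters is a description and does not show binding. The longest annotated transcript (GENCODE M21) had a median of 3928 bases among the genes that rose, 3011 among those that fell and 3225 among all genes tested. The median GC content was 52.4%, 54.8% and 49.9%.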

How the data were processed

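RNA of polysomal and sub-polysomal fractions was sequenced from 4 pellets per condition. The authors trimmed reads with Trim Galore 0.6.6, mapped them with STAR 2.6.1 to GRCm39 and quantified them with Salmon 1.4.0. The deposited counts per gene were rounded by the authors and are not normalized, and genes without expression in at least 3 of 4 replicates of any group had been removed. The library kit preserves strand (Illumina Stranded mRNA Prep), but whether quantification used strand is not given in the sources used here. The deposited gene set file was used for the members of its 50 HALLMARK sets. Deposited results of the authors' own comparisons (log2 fold differences, p-values, gene set scores) were not used.

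The 8 libraries were fitted with edgeR 4.0.16 in R 4.3.3 (filterByExpr, TMM, two-sided quasi-likelihood F test, Benjamini-Hochberg adjustment over all genes tested, threshold 0.05). The polysomal libraries were fitted alike. The difference between fractions was tested over 16 libraries with a term per pellet. The steps were run on simulated counts, drawn independently with the dispersions of this fit. No simulated library was made to stand apart, so this checks the steps and not the calls. The biological coefficient of variation was 0.221 and the median standard error of a log2 change 0.200. P-values measure the spread between pellets.

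Candidates for naming were the genes the study names for its mechanism. Per direction, the 12 called genes with the largest change (mean of at least 50 counts, no overlap) and the 5 most abundant called were added. From each list its called members, its most abundant and, where none was called, the one with the smallest p were candidates. Not every list or candidate is described above, and the NF-κB and translation factor lists are given without a named member. The remaining called genes were added so that every one is accounted for. Members, lists and rules were chosen with earlier results of these data known. Positions are from GENCODE M21 (GRCm38). Alternatives were other normalizations and filters, DESeq2 1.42.0, all 16 sub-polysomal libraries, the replicate number as a block, and each library left out.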

Additional observations from a re-analysis of the deposited data

Results flagged for a closer look

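Of 86 groups of 4 libraries, 7 held a library far from the other 3, where chance gives about 4.3 (1 in 20 groups). In ASP shGRIN2D replicate 2, *Smad3* was 158 CPM where the other silenced libraries had 257 to 275, *Entpd5* was 21.6 CPM against 26.9 to 27.9, *Asic1* was 3.83 CPM against 5.14 to 5.32, and *Cspg4* was 4.36 CPM against 3.45 to 3.57. In ASP shGRIN2D replicate 1, *Gdpd5* was 20.3 CPM against 23.9 to 24.4 and *Agps* was 34.4 CPM against 42.7 to 44.3. In ASP shSCR replicate 2, *Podnl1* was 28.1 CPM where the other controls had 18.3 to 19.8. For the genes among these that changed, the groups still did not overlap.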

How the results depend on the processing

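The direction of all 32 genes was kept under every alternative in which they were measured. The number called was 30 with DESeq2's size factors, 28 with library totals, 47 without a filter (27 lower), 39 with at least 10 counts in every library, 117 with DESeq2's Wald test (48 higher, 69 lower) and 57 with all 16 sub-polysomal libraries (36 lower). It ranged from 6 to 28 when a library was left out, with 3 to 11 higher and 1 to 17 lower. With the replicate number as a block 12 genes were called, 6 higher and 6 lower, all among the 32. Deviations of same-numbered libraries correlated at 0.31, -0.01, 0.01 and 0.09, and only numbers 1 and 4 correlated best with their own number (other pairings reached 0.04 for each), so the numbers were not taken as a pairing. They do not exclude one for some pellets. *Grin2d* stayed between -1.01 and -0.61 and passed the adjusted threshold in none of them. In polysomal RNA 0 genes were called in the fits by edgeR, except 1 when ASP shSCR replicate 2 was left out (0 to 1 over the omissions), and 30 by DESeq2, settings chosen after seeing the data. The difference between fractions called 0 genes in every alternative. The causes of these shifts were not tested. Of the called genes, *Rsad2*, *Slurp1* and *Cspg4* had means under 50 counts, which limits the precision of their changes.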

Other observations

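Of the 50 HALLMARK gene sets, E2F targets had the lowest median log2 change, -0.11 over 199 tested genes, with 21 lower and 0 higher at an unadjusted p under 0.05. Glycolysis (170 tested, median -0.10) had 19 lower and 5 higher, and mTORC1 signaling (192 tested, median -0.07) had 25 lower and 4 higher. Hypoxia (155 tested, median -0.04) had the highest share lower, 17.4%, with 27 lower and 11 higher. Without ASP shSCR replicate 2, 10 glycolysis, 16 mTORC1 and 12 hypoxia genes were lower, the hypoxia median was 0.03, and 26 E2F targets were lower. Without ASP shGRIN2D replicate 1 or 2, 10 or 12 glycolysis genes were lower. The genes that fall after UV exposure had the highest median, 0.15 over 121 tested genes, with 19 higher and 6 lower (12 higher without ASP shGRIN2D replicate 3 or 4), and TGF-β signaling (50 tested) had a median of 0.11, with 6 higher and 3 lower. Of all genes, 4.57% were higher and 5.51% lower at that threshold.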
